A study of Homo sapiens with 13 samples.

Results

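The genes described here are the 10 human genes FOS, FOSB, FOSL1, FOSL2, JUN, JUNB, JUND, ATF3, EGR1 and IER3, found by gene name among 14575 genes with poly(A) reads. They held 334 of 211765 3′ isoforms, where an isoform is an mRNA 3′ end at 1 nucleotide position downstream of a stop codon. All 10 genes passed the filter on low values, with 9494 genes tested in all. The filter asks for enough reads in as many libraries as the smaller group has, so reads in 1 group alone, R749H or wild-type, can carry a gene through. FOSB and IER3 were selected on their measured values, because their reads were higher in R749H cells, so their levels and isoforms are described with no test. The other 8 genes were not selected one by one on this comparison, although earlier results of these data were known when the group was put together.

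The cells were HEK293 Flp-in T-REx, a human embryonic kidney line, with an integrated pcDNA5 plasmid for an α-amanitin resistant form of Rpb1, the catalytic subunit of RNA polymerase II (Pol II). In 5 libraries (wild-type replicates 1 to 5) this Rpb1 was wild-type, and in 4 libraries (R749H replicates 1 to 4) it carried R749H, a substitution that slows elongation. Both groups received doxycycline at 2 µg/ml to induce the transgene, for 24 hr per the labels, though the study's methods give a shorter time for these libraries. Then α-amanitin at 2.5 µg/ml followed for 42 hr to block the endogenous Pol II, with doxycycline continued per those methods. Every value below is therefore from cells under both drugs. Hygromycin and blasticidin were in the medium of both groups. Whether each line is a single clone was not given in the sources used here, and a line and its Rpb1 form cannot be told apart in this design. The study asked how Pol II speed alters the position of poly(A) sites, and the same libraries also give the level of each gene.

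AP-1 is a transcription factor made of a Fos or ATF protein paired with a Jun protein through a leucine zipper (bZIP), and the pair binds a short DNA element in promoters and enhancers. Growth factors, serum and many stresses switch on FOS, JUN, EGR1 and their relatives within minutes, through MAP kinases and preformed factors such as SRF and ELK1 and without new protein synthesis, which is why they are called immediate early genes. Their mRNAs are generally short-lived, and AU-rich elements in the 3′ UTR, often built from the pentamer ATTTA, mark many of them for decay.

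The 3′ ends themselves are shown first, because each gene was measured by the reads at these ends. Every sequence is the 30 nucleotides of the sense strand that finish at a cleavage position, read from the GRCh37 genome, with the poly(A) signal hexamer in capitals where AATAAA or ATTAAA was found. The offset after each name is the distance from the last nucleotide of the stop codon. The ends of FOSB and IER3 come first because these genes were chosen for their higher reads in R749H. JUN and FOSL2 follow because each used several separate ends, and JUNB and JUND because their ends held neither hexamer.
FOSB +2166, chr19:45978407-45978436, plus strand: ctgttgccAATAAAaagctcttaaaaacgc
IER3 +733, chr6:30710980-30711009, minus strand: tgtgaacacaAATAAAattgatttactgtc
JUN +583, chr1:59247164-59247193, minus strand: tactgtcAATAAAcagcttcatgcctttgt
JUN +691, chr1:59247056-59247085, minus strand: accatttgtAATAAAgtatataattttttt
JUN +1282, chr1:59246465-59246494, minus strand: ttcttgtcacAATAAAtgtattcaaatacc
FOSL2 +522, chr2:28635808-28635837, plus strand: ggtctgaatATTAAAgctcttcatttctgg
FOSL2 +4242, chr2:28639528-28639557, plus strand: tctctgtatgATTAAAagtttattccattt
JUNB +498, chr19:12904098-12904127, plus strand: tttaagtaaaaaaaaaattggttctttatt
JUND +680, chr19:18390571-18390600, minus strand: tttctgttttcagtaaagtctcgttacgcc

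All of these ends lie in an annotated 3′ UTR, in the exon that holds the stop codon. At the main end of the gene, FOS, FOSB, FOSL1, JUN, ATF3, EGR1 and IER3 had AATAAA in the 30 nucleotides and FOSL2 had ATTAAA. In EGR1 this AATAAA began only 8 nucleotides before the end, against 20 to 26 for the hexamers of the other genes just named. The same 30 nucleotides of EGR1 also held ATTAAA, further upstream. Among the main ends of all 9494 genes tested, 65.1% had AATAAA and 81.4% had AATAAA or ATTAAA. The main ends of most of the genes described here thus held a common hexamer, wherever it lay in the 30 nucleotides. The search covered these exact letters on the sense strand, and says nothing of other signal variants in JUNB and JUND.

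The number of ATTTA pentamers between the stop codon and the main end, counted on the sense strand with overlaps allowed, varied widely within the group. IER3 had 6 in 733 nucleotides, and 2.12% of the 9494 genes had at least as many in a window of that length. FOS had 5 in 805 nucleotides, which 6.16% of genes reached in the same length. JUNB had 2 in 498 nucleotides (reached by 24.7% of genes), ATF3 had 3 in 1217 (36.5%) and FOSB had 3 in 2166 (56.6%). FOSL1, JUND and EGR1 had 1 each (reached by 58.9%, 59.4% and 74.4% of genes), and JUN and FOSL2 had none. The count is a description of letters, and mRNA decay was not measured in these libraries.

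Levels are given as reads per 7 M poly(A) reads, the scale of the deposited values. Because 3′ READS yields 1 read per transcript end, levels of different genes compare without a correction for length. The libraries held 2479851 to 10135014 reads within 5 kb of a stop codon, so 1 read was worth 0.622 to 2.53 on this scale. R749H replicate 3 stood apart, since only 6.60% of its 41033 isoforms rested on 1 read and at least 30% did so in each of the other 8 libraries, and for each of the 10 genes in which it was the highest or lowest R749H library, the fold change without it is given. Of 8 genes expressed in HEK293 cells, 7 had reads, led by KRT18 at 2328 to 3936 in wild-type and 2635 to 4289 in R749H libraries. Of the 4 that were tested, none was higher and VIM was lower in R749H (log2 fold change -0.66, SE 0.19, adjusted p = 0.0194 with limma). Among all genes tested, limma called 10.9% higher and 12.9% lower in R749H. PAX2, not tested, had 10.1 to 27.7 in wild-type and 0 to 4.78 in R749H libraries, without overlap. On this scale 2140 of the 9494 genes tested were lower without overlap. NES, also not tested, had 2.75 to 17.4 and 0 to 4.70, with overlap. The neurofilament gene NEFM did not exceed 2.53. Of 8 markers of blood, liver, fibroblast, erythroid, muscle and astrocyte cells, 5 had reads, and their summed level was 15.2 to 60.4 in wild-type and 0 to 8.61 in R749H libraries. Most of that was MYOD1, a muscle regulator and the only 1 of these markers tested. It had 6 to 51 reads in wild-type and 0 to 5 in R749H libraries, so it passed the filter mainly through wild-type. MYOD1 was called lower in R749H (log2 -3.38, SE 0.73, adjusted p = 0.00387 with limma), as were 12.9% of all genes tested. The part of these markers in the results below was not tested. In bulk RNA, a change in the share of cells that express a gene and a change in RNA per cell cannot be told apart. The p-values measure the spread between these libraries, which the study calls biological replicates, and counting intervals are not given because no molecular identifiers are named for this assay.

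Across the 8 genes open to a test, 5 were higher in R749H (FOS, FOSL1, JUNB, ATF3 and EGR1), none was lower, and FOSL2, JUN and JUND did not pass. The test was limma on log2 reads with TMM factors, adjusted over all 9494 genes, and it called 10.9% of all genes higher and 12.9% lower in R749H. The median log2 fold change was 1.79 for the 8 genes and -0.07 for all genes tested. On the authors' scaling alone, without TMM factors, the median gene moved to -0.41, a shift of -0.34, and the share of calls that were higher went from 45.8% of 2265 to 14.1% of 3059. On that scale 4 of the 8 genes were still called higher and ATF3 was not, and JUND passed as lower. For 3 of the 8 genes, FOSL1, JUNB and EGR1, every R749H library lay above every wild-type library on the deposited scale, as it did for 3.68% of all genes tested, while 2140 genes were lower without overlap on that scale.

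**Figure D1:**
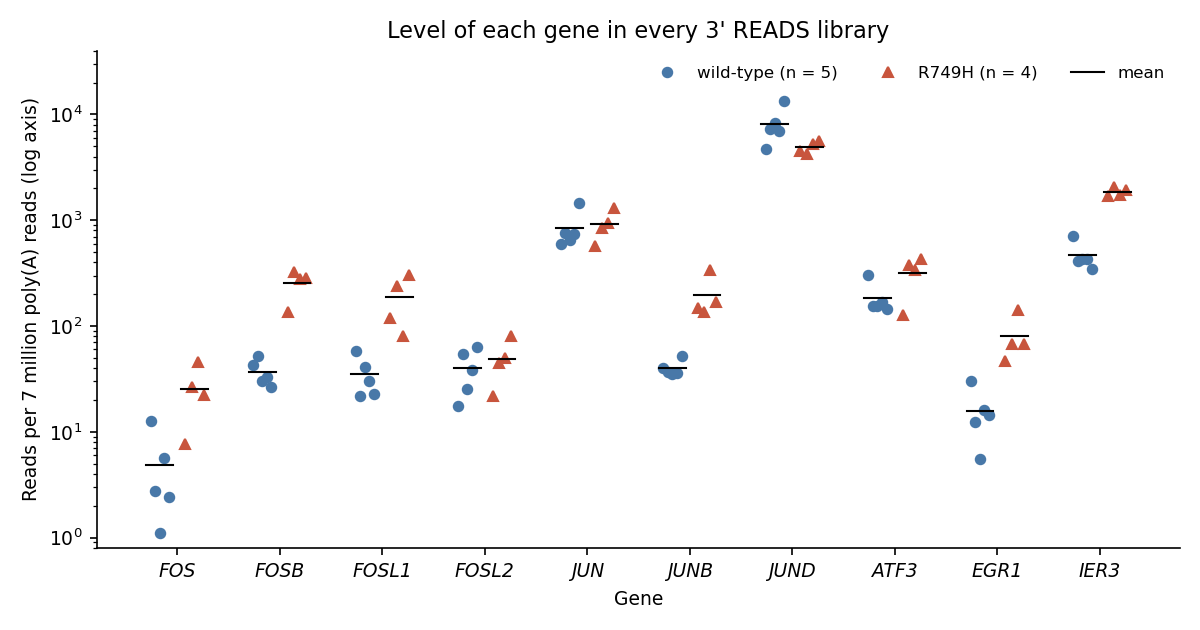
Level of each of the 10 genes in every library, in reads per 7 M poly(A) reads on a log axis, with wild-type as circles (n = 5), R749H as triangles (n = 4) and the mean of each group as a line. The 4 R749H points lie above all 5 wild-type points for FOSB, FOSL1, JUNB, EGR1 and IER3, and the groups overlap for FOS, FOSL2, JUN, JUND and ATF3.

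**Figure D2:**
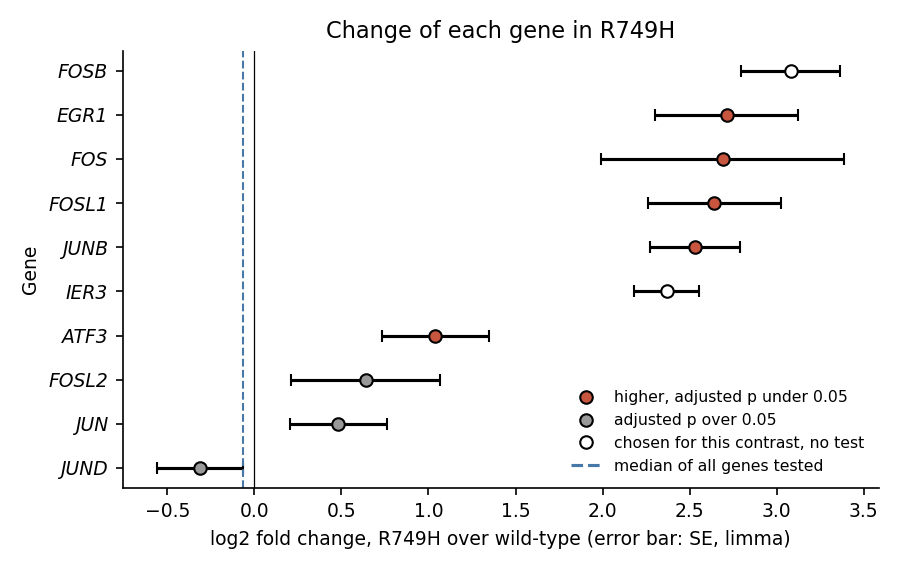
The log2 fold change of R749H over wild-type for each gene, with the SE from limma as error bars, in red where the adjusted p was under 0.05 and grey where it was not. FOSB and IER3 (white) were chosen for this comparison and have no test, and the dashed line is the median of all genes tested, at -0.07.

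Fos proteins bind DNA only with a partner, usually a Jun protein. FOS (ENSG00000170345, chr14:75745529-75748933, plus strand) encodes c-Fos, the founding member. Its level was 12.7, 2.75, 1.11, 5.60 and 2.41 in wild-type replicates 1 to 5 and 7.65, 26.6, 45.4 and 22.3 in R749H replicates 1 to 4. The lowest R749H library, replicate 1, lay below wild-type replicate 1, so the groups overlapped, and the wild-type values rest on 1 to 9 reads per library and the R749H values on 8 to 28. FOS was 6.45-fold higher in R749H (log2 2.69, SE 0.70, adjusted p = 0.0114 with limma), and without R749H replicate 3, which had its highest value, the log2 fold change was 2.41 (adjusted p = 0.0217 with limma). It passed the filter mainly through its R749H libraries, and with no filter its log2 fold change was 2.67 (adjusted p = 0.0122 with limma). FOS was the least abundant of the 10 genes in both groups.

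FOSB (ENSG00000125740, chr19:45971253-45978437, plus strand) encodes a Fos protein that is also made as the truncated and long-lived form ΔFosB by alternative splicing, which 3′ ends do not resolve. In wild-type replicates 1 to 5 its level was 43.0, 52.2, 29.9, 33.0 and 26.6. R749H replicates 1 to 4 had 136, 322, 279 and 284, so the lowest of them was more than the highest wild-type library, and R749H replicate 1 stood below the other R749H libraries. The fitted log2 fold change was 3.08 (SE 0.29), or 8.46-fold, and ranged from 2.74 to 3.37 over the alternative analyses. This was the difference for which the gene was chosen.

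FOSL1 (ENSG00000175592, chr11:65659520-65668044, minus strand) encodes Fra-1, a Fos relative without a transactivation domain that accumulates in cells with sustained ERK activity. Levels were 58.2, 22.0, 41.0, 30.5 and 22.9 in the wild-type libraries and 119.6, 239, 81.1 and 304 in the R749H libraries, in replicate order. The R749H values varied widely, with replicate 3 lowest, yet all 4 exceeded the 5 wild-type values. FOSL1 rose 6.24-fold (log2 2.64, SE 0.38, adjusted p = 0.000242 with limma), and without R749H replicate 3 the log2 fold change was 3.05.

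FOSL2 (ENSG00000075426, chr2:28615315-28640184, plus strand), which encodes Fra-2, was the Fos gene with no call. It had 17.7, 54.9, 25.5, 38.6 and 62.8 in wild-type and 22.0, 44.3, 50.3 and 79.9 in R749H libraries, and the groups overlapped over most of their range. The log2 fold change of 0.64 (SE 0.43, adjusted p = 0.293 with limma) was within the spread of the libraries, and FOSL2 did not pass in any of 16 alternatives.

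Summed over the 4 Fos genes, the level was 97.5 to 131.8 in wild-type and 285.1 to 690.6 in R749H libraries. This sum and every share of it contain FOSB, which was chosen for its higher level in R749H, so they are given as a description. FOSB made up 31.4% ± 5.87 (SD, n = 5) of it in wild-type and 50.2% ± 8.37 (SD, n = 4) in R749H libraries. Without FOSB, the sum of FOS, FOSL1 and FOSL2 was 67.6 to 88.6 in wild-type and 149.3 to 406.4 in R749H libraries, still with no overlap. Of this sum FOSL2 held 49.9% ± 21.6 (SD, n = 5) in wild-type and 19.3% ± 6.57 (SD, n = 4) in R749H, FOSL1 held 44.2% ± 18.4 (SD, n = 5) and 69.5% ± 15.9 (SD, n = 4), and FOS held 5.92% ± 5.17 (SD, n = 5) and 11.2% ± 9.77 (SD, n = 4). All 3 shares overlapped between the lines.

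**Figure D3:**
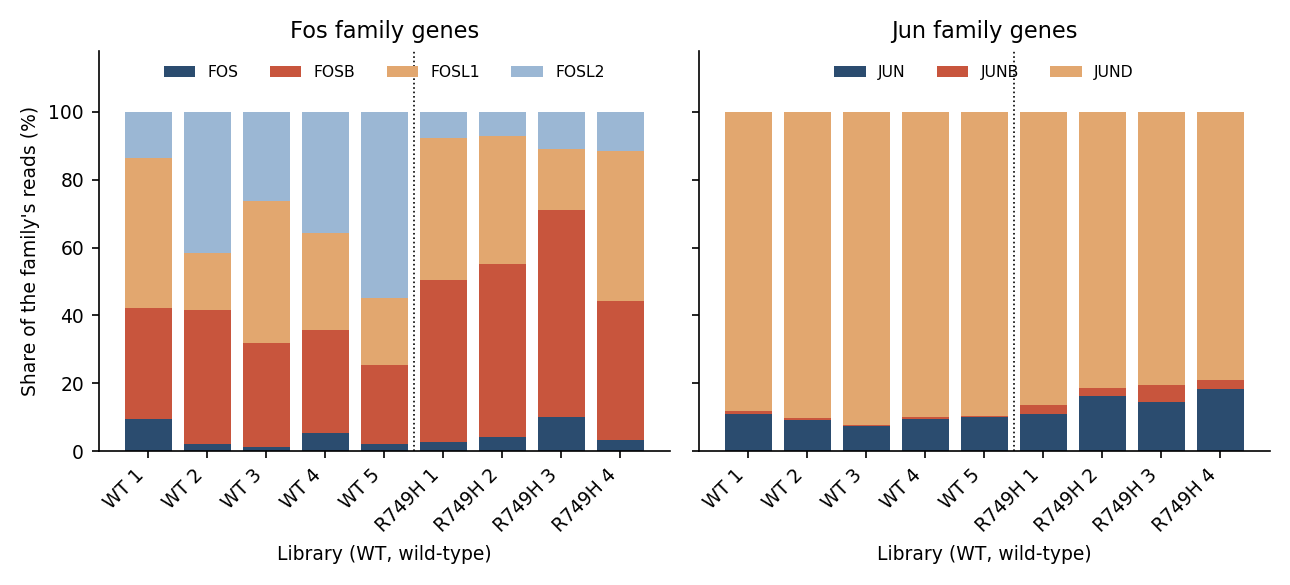
Share of the summed reads of the 4 Fos genes (left) and the 3 Jun genes (right) held by each gene, in percent, with 1 bar per library and a dotted line between the 5 wild-type (WT) and 4 R749H libraries. FOSB holds 23.2% to 39.6% of the Fos reads in wild-type and 41.2% to 61.2% in R749H bars, a difference that follows from the choice of FOSB, and JUND holds most of the Jun reads in every bar.

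The Jun proteins bind DNA both as pairs with Fos proteins and among themselves. JUN (ENSG00000177606, chr1:59242517-59249720, minus strand), the target of the JNK kinases, was abundant in both lines. Its level was 589.6, 749.8, 654, 746 and 1469 in wild-type and 565, 848, 933 and 1308 in R749H libraries. Wild-type replicate 5 was the highest of all 9 libraries and R749H replicate 1 the lowest, and the log2 fold change of 0.48 (SE 0.28, adjusted p = 0.221 with limma) did not pass. Without wild-type replicate 5 it was 0.70 and passed (adjusted p = 0.0396 with limma), so that library decided the call, and on the authors' scaling it was 0.14.

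JUNB (ENSG00000171223, chr19:12902300-12904129, plus strand) encodes a Jun protein that is a weaker activator than c-Jun and can oppose it. Wild-type libraries had 40.5, 37.1, 35.5, 36.1 and 51.9, the narrowest range of the 10 genes relative to its mean, and R749H libraries had 148, 136, 336 and 168. Each R749H value was above the wild-type range, with replicate 3 the highest. JUNB rose 5.78-fold (log2 2.53, SE 0.26, adjusted p = 9.81e-06 with limma), and by 2.32 on the log2 scale without R749H replicate 3 (adjusted p = 1.47e-05 with limma).

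JUND (ENSG00000130522, chr19:18390504-18392432, minus strand), the Jun gene that is expressed without stimulation in most cells, was the most abundant of the 10 genes. Levels were 4737, 7309, 8235, 6986 and 13257 in wild-type and 4483, 4268, 5216 and 5613 in R749H libraries. Wild-type replicate 5 was far above the others, and wild-type replicate 1 lay within the R749H range. The log2 fold change of -0.31 (SE 0.25) did not pass (adjusted p = 0.379 with limma), while on the authors' scaling it was -0.66 (adjusted p = 0.0284 with limma), and without wild-type replicate 5 it was -0.11.

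The share of each gene in the summed Jun reads is free of the scaling. JUND made up 90.1% ± 1.44 (SD, n = 5) of these reads in wild-type and 81.8% ± 3.12 (SD, n = 4) in R749H, with every R749H library below every wild-type library. JUNB held 0.485% ± 0.158 (SD, n = 5) in wild-type and 3.25% ± 1.30 (SD, n = 4) in R749H, also with no overlap. For JUN the shares were 9.42% ± 1.34 (SD, n = 5) and 15% ± 3.20 (SD, n = 4), and R749H replicate 1, at 10.9%, lay within the wild-type range. The sum itself overlapped between the lines, at 5367 to 14778 in wild-type and 5196 to 7089.5 in R749H libraries.

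ATF3 (ENSG00000162772, chr1:212738676-212794119, plus strand) encodes a bZIP protein that pairs with Jun proteins and is induced by many stresses. It had 304, 155, 155, 167 and 146 in wild-type and 128, 374, 337 and 431 in R749H libraries. Wild-type replicate 1 stood above the other wild-type libraries and R749H replicate 1 lay below all of them, so the groups overlapped. ATF3 rose 2.06-fold (log2 1.04, SE 0.31, adjusted p = 0.0213 with limma). The call was lost without R749H replicate 2 (adjusted p = 0.0746 with limma), without R749H replicate 4 (adjusted p = 0.0811 with limma) and on the authors' scaling (adjusted p = 0.0946 with limma), with the log2 fold change at 0.70 to 1.44 over the alternatives.

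EGR1 (ENSG00000120738, chr5:137801168-137804992, plus strand) encodes a zinc finger transcription factor and not a bZIP protein, and is a standard marker of the immediate early response. Levels were 30.4, 12.4, 5.54, 16.2 and 14.5 in wild-type and 46.9, 68.0, 143 and 66.9 in R749H libraries, from 5 to 26 and 46 to 88 reads. All R749H libraries were above the wild-type range, and replicate 3 was the highest. EGR1 rose 6.56-fold (log2 2.71, SE 0.41, adjusted p = 0.000325 with limma), and by 2.48 on the log2 scale without R749H replicate 3.

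IER3 (ENSG00000137331, chr6:30710976-30712325, minus strand) encodes a small protein that affects cell survival and ERK signalling and is induced by growth factors, stress and NF-κB. Wild-type libraries had 716, 409, 429, 431 and 345 and R749H libraries had 1680.2, 2059.6, 1723 and 1913. The R749H values were close together, and wild-type replicate 1, the highest of its group, was still below every one of them. The fitted log2 fold change was 2.37 (SE 0.19), or 5.16-fold, and 2.03 to 2.49 over the alternatives, and this again was the difference that chose the gene.

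Ranked by mean level, the wild-type order was JUND, JUN, IER3, ATF3, JUNB, FOSL2, FOSB, FOSL1, EGR1 and FOS. JUND was above JUN in every library, and the ranges of IER3 and ATF3 did not overlap. The next 4 genes, from JUNB at 40.2 ± 6.83 to FOSL1 at 34.9 ± 15.1 (means with SD, n = 5), could not be separated beyond their spread, and JUN and IER3 also overlapped. In R749H the order became JUND, IER3, JUN, ATF3, FOSB, JUNB, FOSL1, EGR1, FOSL2 and FOS. IER3 at 1844 ± 176 was then above the range of JUN at 913 ± 307, while ATF3, FOSB, JUNB and FOSL1 overlapped each other (means with SD, n = 4). Against the 9494 genes tested, the mean of JUNB went from percentile 27.4 in wild-type to 71.4 in R749H, that of EGR1 from 5.28 to 53.1 and that of FOS from 0.137 to 24.4. These percentiles leave out the lower genes among the 14575 with reads, which the filter removed. FOS passed that filter mainly through R749H libraries, so its low wild-type percentile follows in part from the filter.

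Usage of 3′ ends within a gene does not depend on its total, and was compared as the log2 odds of reads downstream against upstream of the gene's pooled median position. Of 7 genes tested, none passed with limma, where 0.0515% of 7760 genes passed (4 genes, all shifted upstream in R749H) and 9.56% had an unadjusted p under 0.05. JUN was the 1 gene of the 7 with an unadjusted p under 0.05. FOS had too few reads for the test.

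The ends of JUN fell mainly into 3 clusters that held 69.1%, 19.5% and 8.50% of its 6638 reads in all libraries. The proximal cluster, at +575 to +597, took 39.1, 63.7, 58.8, 58.0 and 72.1 percent of JUN reads in wild-type and 76.6, 78.8, 80.0 and 77.7 percent in R749H replicates, in order. All 4 R749H libraries were above all wild-type libraries, and the R749H values lay within a few percent of each other. The cluster at +682 to +697 took 22.3, 20.9, 21.2, 29.0 and 20.4 percent in wild-type and 15.2, 14.3, 10.8 and 15.3 percent in R749H, with every R749H value below the wild-type range. The distal cluster at +1281 to +1290 took 28.8, 12.4, 15.6, 10.8 and 6.08 percent in wild-type and 3.56, 4.70, 7.83 and 3.68 percent in R749H, where R749H replicate 3 overlapped with wild-type replicate 5. All 3 clusters had an AATAAA hexamer that began 20 to 23 nucleotides before the end shown above.

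Reads downstream of +583, the pooled median, made up 48.2% ± 12.5 (SD, n = 5) of JUN reads in wild-type and 28.2% ± 1.67 (SD, n = 4) in R749H. The difference in log2 odds, R749H minus wild-type, was -1.24 (SE 0.37, unadjusted p = 0.00888, adjusted p = 0.341 with limma), so it did not pass across all genes. A division at the midpoint, +932.5, which sets the distal cluster against both others, gave -1.46 (adjusted p = 0.360 with limma). Without wild-type replicate 1, which had the highest downstream share, the difference was -0.96, and without R749H replicate 3 it was -1.19. The level of the proximal cluster was 230.3, 478, 385, 432 and 1059 in wild-type and 432, 668, 746 and 1016 in R749H libraries, and that of the distal cluster was 169.5, 93.4, 102, 80.3 and 89.3 and 20.1, 39.9, 73.0 and 48.2, on the deposited scale.

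**Figure D4:**
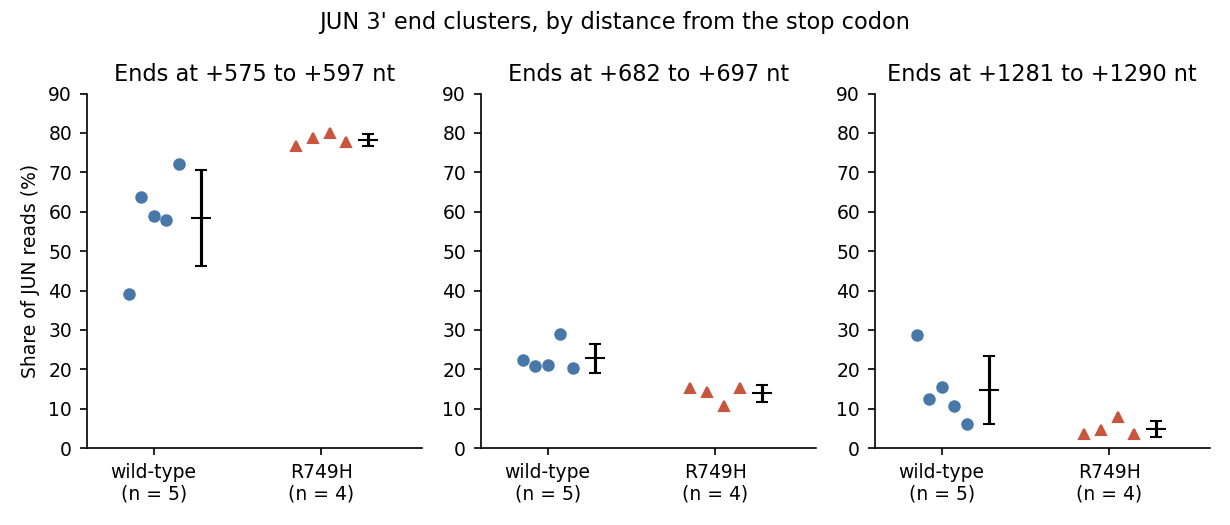
Share of JUN reads in each of its 3 clusters of 3′ ends, in percent, by distance from the stop codon, with 1 point per library (wild-type circles, n = 5; R749H triangles, n = 4) and the mean with SD to the right. The proximal cluster is higher and the middle cluster lower in all R749H libraries, and the distal cluster overlaps.

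FOSL2 used ends far apart in 1 long 3′ UTR, with 46.4% of its 336 reads at +521 to +526 and 37.8% at +4241 to +4247. The distal cluster took 42.9, 40.0, 30.4, 41.9 and 30.8 percent in wild-type and 69.6, 60.0, 12.9 and 30.9 percent in R749H replicates. The R749H libraries lay on both sides of the wild-type range, and the log2 odds of ends beyond +526 differed by 0.56 (SE 0.62, adjusted p = 0.788 with limma), and by 0.88 without R749H replicate 3, which had the lowest distal share. With 7 to 68 reads per library, the precision of these shares is low.

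The other genes had 1 main cluster. JUND ended at +672 to +689 for 99.6% of its 52401 reads, and 97.3% of them were at the single position +680. In FOSB, 95.8% of 931 reads were at +2166, and in IER3 99.4% of 7787 reads were at +725 to +740, split between +733 with 58.3% and +736 with 39.7%. The share of +733 in IER3 was 60.6% ± 5.23 (SD, n = 5) in wild-type and 58.0% ± 2.3 (SD, n = 4) in R749H, and the whole cluster held at least 98.7% in every library, so the higher level in R749H came from the same ends. JUNB was split between +498 with 64.8% and +495 with 30.4%, and ends downstream of +498 had reads in R749H replicate 1 only, among the 9 libraries.

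ATF3 had 93.0% of its 1725 reads at +1206 to +1227 and 6.32% at +1091 to +1092. The share of its main position, +1217, was 77.9% ± 2.19 (SD, n = 5) in wild-type and 72.9% ± 1.93 (SD, n = 4) in R749H, with no overlap, and this share of a single position was not tested. EGR1 was spread over +1142 to +1144, +1220 to +1228 and +1233 to +1239, with 16.4%, 57.6% and 14.8% of 304 reads, and the lines overlapped at each. FOSL1 had 86.9% of 740 reads at +663 to +667, and FOS had 82.6% of 92 reads at +805 to +808 and 14.1% at +799. The log2 odds for FOSL1, JUNB, JUND, ATF3 and EGR1 had adjusted p-values of 0.647 to 0.995 with limma.

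Other immediate early genes were taken from a list of 32, of which 16 passed the filter. Of these, 12 (75%) rose in R749H and none fell, against 10.9% and 12.9% of all genes tested. The median log2 fold change was 1.34, and on the authors' scaling 7 rose. With no filter, 13 of 31 rose. The genes below the filter went in both directions, such as MYC with means of 13.2 in wild-type and 2.47 in R749H, and IER2 with 4.22 and 20.0. When each library was left out in turn, 8 to 12 rose. IER5L, a relative of the immediate early gene IER5, had 1.37 to 10.9 in wild-type and 12.9 to 25.1 in R749H libraries and rose by 2.12 on the log2 scale (SE 0.62, adjusted p = 0.0209 with limma), a call lost without R749H replicate 2 (adjusted p = 0.0794). With 1 to 9 reads per library in wild-type and 11 to 17 in R749H, it passed the filter through R749H libraries alone, so its presence among the tested genes depends on its higher reads there. With no filter its log2 fold change was 2.10 (adjusted p = 0.0230 with limma). CYR61 encodes a matrix protein induced through SRF and YAP, and rose by 2.03 (SE 0.27, adjusted p = 0.000132 with limma), from 37.1 to 62.8 to 105 to 219.6. GADD45B, a stress gene that acts on MAP kinase kinases, rose by 1.78 (SE 0.27, adjusted p = 0.000339 with limma), from 39.8 to 88.6 to 114.8 to 234.9. These 3 were higher with no overlap between the lines, which follows in part from naming the largest increases. Of the other genes tested in the list, BTG2, NFKBIA and ZFP36 were also higher without overlap and the rest overlapped. Without any such choice, 3.68% of all genes tested were higher without overlap. The most abundant gene of the list was PPP1R15A, which encodes a subunit that directs dephosphorylation of eIF2α, at 1029.9 to 2915 in wild-type and 1513 to 3848 in R749H libraries. It passed with a log2 fold change of 0.95 (adjusted p = 0.0281 with limma) and lost the call on the authors' scaling (0.61, adjusted p = 0.0905 with limma) and without wild-type replicate 1, 2 or 3 or R749H replicate 2 or 4 (adjusted p = 0.0552 to 0.103).

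Among 16 other bZIP genes tested, whose proteins can pair with Fos, Jun or each other, 4 (25%) rose and 2 fell, with a median of -0.16. Over all genes tested, 10.9% rose and 12.9% fell. MAFF, a small Maf protein without a transactivation domain, had the largest change, from 2.53 to 13.3 in wild-type to 39.2 to 206 in R749H libraries (log2 4.36, SE 0.52, adjusted p = 4.37e-05 with limma). MAFF had 1 to 16 reads per library in wild-type and 41 to 175 in R749H, so it passed the filter mainly through R749H. With no filter its log2 fold change was 4.33 (adjusted p = 9.88e-05 with limma). CREM, a cyclic AMP response factor, went from 187 to 277 to 339 to 1234 (log2 2.12, SE 0.30, adjusted p = 0.000226 with limma), and MAFG from 10.1 to 34.4 to 45.8 to 84.4 (log2 1.74, SE 0.37, adjusted p = 0.00319 with limma; 1.65 without R749H replicate 3). BATF3, which pairs with Jun proteins, fell from 151 to 240.3 to 39.9 to 98.6 (log2 -1.18, SE 0.25, adjusted p = 0.00325 with limma). NFE2L1, a regulator of proteasome genes, fell by 0.96 on the log2 scale (SE 0.28, adjusted p = 0.0219 with limma), a call lost without R749H replicate 2 or 3 (adjusted p = 0.0644 and 0.0586). ATF4, the most abundant of the list, had 7495 to 10495 and 5524 to 7560.5 and did not pass (adjusted p = 0.641 with limma), with a log2 fold change of -0.13 that was 0.02 without R749H replicate 3 and passed as lower, at -0.47, on the authors' scaling.

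Of 19 upstream kinases and transcription factors tested, 1 rose and 1 fell, against 10.9% and 12.9% of all genes tested, with a median log2 fold change of 0.01. On the deposited scale the summed level of the list was 10397 to 13183 in wild-type and 8287 to 9184 in R749H libraries, with no overlap. On that scale 2140 of the 9494 genes tested were also lower without overlap, as was the sum of the AP-1 target list below. MKL1, a coactivator of SRF, rose by 0.96 (SE 0.26, adjusted p = 0.0134 with limma), from 50.6 to 87.1 to 86.1 to 178, and lost the call on the authors' scaling (adjusted p = 0.0783 with limma). Its highest value was in R749H replicate 3, without which the log2 fold change was 0.81 (adjusted p = 0.0342 with limma). ELK3, an ETS factor that represses SRF targets until it is phosphorylated, had 10 to 20 reads in wild-type and 0 to 3 in R749H. It was called lower (log2 -3.53, SE 0.90, adjusted p = 0.0102 with limma). ELK3 passed the filter mainly through wild-type libraries, so its presence among the tested genes depends on its higher reads there. With no filter its log2 fold change was -3.535 (adjusted p = 0.00346 with limma). MAPK3, the most abundant, encodes ERK1 and had 1931 to 3539 in wild-type and 1614 to 1847 in R749H libraries, and is 1 of the 2140 genes lower without overlap on the deposited scale (log2 -0.17, SE 0.19, adjusted p = 0.536 with limma, and -0.51, adjusted p = 0.0282, on the authors' scaling).

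Of the dual-specificity phosphatase, Sprouty and Spred genes that dampen MAP kinase signalling, 4 of 13 were tested and DUSP14 rose (log2 1.15, SE 0.27, adjusted p = 0.00599 with limma), with R749H replicate 1 at 311.0 below every wild-type library and the other 3 R749H libraries above all of them. Over all genes tested, 10.9% were called higher and 12.9% lower, the shares to set beside this list and the next. Among 7 proteins tested that bind AU-rich elements, none rose and TIAL1 fell, from 105 to 213 to 42.3 to 114 (log2 -0.85, SE 0.28, adjusted p = 0.0369 with limma), a call lost without wild-type replicate 1, 2 or 4 or R749H replicate 2, 3 or 4 (adjusted p = 0.0612 to 0.141). ELAVL1, the most abundant of them, encodes the stabilizing protein HuR and had 945 to 1079 and 686 to 1157, with a log2 fold change of 0.17 (adjusted p = 0.474 with limma) that was -0.17 on the authors' scaling and 0.13 without R749H replicate 3.

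Textbook AP-1 target genes were mixed, with 2 of 6 tested (33.3%) called higher, none lower, and a median of -0.05, against 10.9% and 12.9% of all genes. Of the 6, 3 had a positive log2 fold change. HMOX1 at -1.83 (adjusted p = 0.105 with limma) and CD44 at -0.70 (adjusted p = 0.109 with limma) did not pass. Summed on the deposited scale, the list had 2152 to 2453 in wild-type and 1871 to 2145 in R749H libraries. HBEGF, an EGF receptor ligand, rose by 2.78 on the log2 scale (SE 0.42, adjusted p = 0.000320 with limma), from 4.43 to 13.3 in wild-type to 35.2 to 56.1 in R749H libraries. These rest on 3 to 15 and 30 to 38 reads, so HBEGF passed the filter mainly through R749H. With no filter its log2 fold change was 2.76 (adjusted p = 0.000787 with limma). CCND1, which encodes cyclin D1, rose by 0.75 (SE 0.26, adjusted p = 0.0421 with limma) with overlap between the lines, and lost the call in 9 alternatives, among them those without wild-type replicate 2, 3, 4 or 5 or R749H replicate 2 or 4 (adjusted p = 0.0509 to 0.125). TIMP1, a metalloproteinase inhibitor and the most abundant, had 1029.9 to 1900.4 and 1150.3 to 1286 with no call (log2 0.03, SE 0.20, adjusted p = 0.932 with limma), and its sign turned on the authors' scaling, with edgeR and in 2 of the analyses that left out a library.

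**Figure D5:**
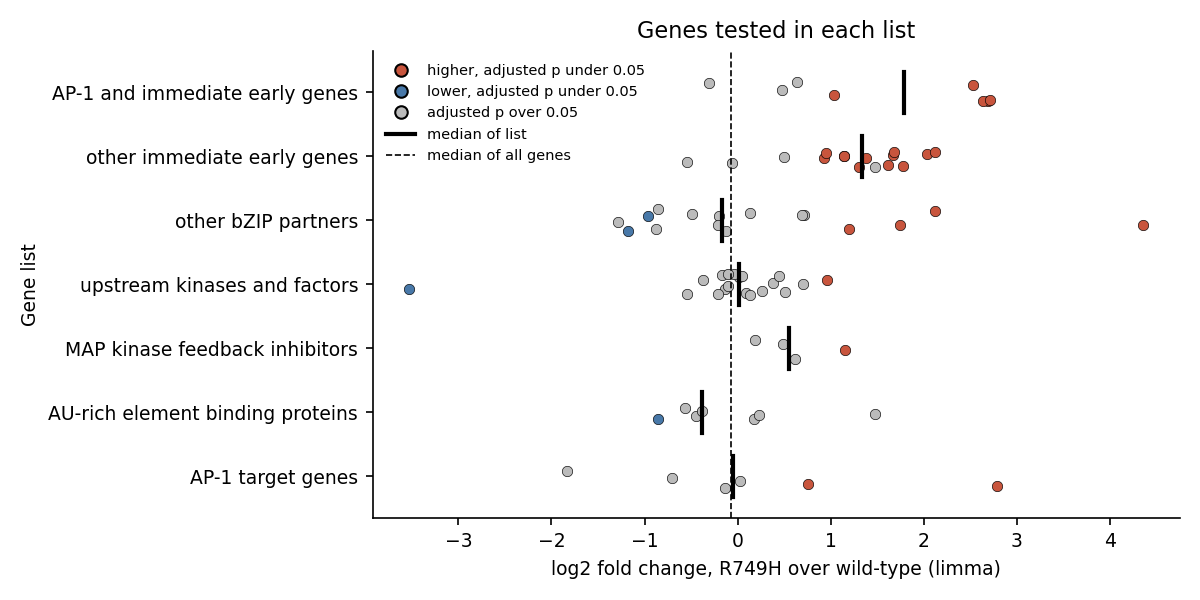
The log2 fold change of R749H over wild-type for each gene tested, by list, without FOSB and IER3, in red where higher and blue where lower with an adjusted p under 0.05. Thick lines are the list medians, at 1.79 for the AP-1 and immediate early genes and 1.34 for the other immediate early genes, against -0.07 for all genes (dashed).

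The genes whose log2 levels were most like those of FOSB over the 9 libraries were DIAPH1, SMIM14 and TNFRSF10D, with Pearson r of 0.985, 0.984 and 0.981 among 7873 genes with a mean of at least 20 reads. DIAPH1 encodes a formin, and TNFRSF10D a decoy receptor for TRAIL. For IER3 they were RNASEH2C, a subunit of RNase H2, with r of 0.99, and APMAP and TOMM34 with 0.985 each. FOSB and IER3 had r of 0.968 with each other, and r of FOSB with the other 8 genes ran from -0.38 for JUND to 0.93 for JUNB. These 9 points share the split into 2 lines, which by itself gives a high r to any 2 genes that differ between the lines.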

How the data were processed

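Poly(A) RNA of 5 wild-type and 4 R749H cultures was measured by 3′ READS. The authors stripped 4 random nucleotides and the leading Ts from each read, mapped the rest to hg19 (GRCh37) with bowtie (the submitters' processing notes name Bowtie2 2.3.2), required non-templated As, and gave each 3′ end to a CCDS stop codon within 5 kb upstream. The deposited values are a signal for each isoform, which the authors expressed per 7 M poly(A) reads of its library. Dividing each library by its smallest step returned whole reads at 100% of isoforms, within 0.1 read, and these reads were summed by gene. The files that pool replicates were not used, and the nascent RNA libraries of the series are not analysed here.

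The genes and all gene lists were chosen with earlier results of these data known. Expression was tested with limma 3.58.1 (eBayes with trend; R 4.3.3) on log2 reads with TMM factors from edgeR 4.0.16, a prior count of 0.5 and filterByExpr. 3′ end position was tested with limma on log2 odds, with 0.5 reads added in proportion to depth, for genes with a mean of at least 20 reads and with reads on both sides of the pooled median, the latter condition added after the design was set. Adjusted p is from the Benjamini-Hochberg procedure across all genes tested, with 0.05 as the limit. Clusters joined isoforms no more than 4 nucleotides apart. All 10 genes are named, with their clusters of at least 10% of reads and their main position, up to 3 genes per direction with the largest change among calls and the most abundant gene of each list, and the 3 genes most like FOSB or IER3. Smaller clusters and positions were added after their values were seen, as were NEFM, PAX2, NES, MYC, IER2, BTG2, NFKBIA, ZFP36, HMOX1 and CD44. Sequences are from the GRCh37 genome and annotations from GENCODE for that build. The alternatives were edgeR's quasi-likelihood test and DESeq2 1.42.0 on the recovered reads, RLE factors, the authors' scaling alone, no filter, a prior count of 2, a mean of at least 50 reads, a midpoint division, a prior of 0.1, a replicate block, and each library left out. The tests were tried on simulated data.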

Additional observations from a re-analysis of the deposited data

Results flagged for a closer look

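In 50 sets of 4 or 5 libraries, covering the level of each gene and the share of each cluster described above, 10 had 1 library far from the others by Dixon's criterion, where chance alone gives about 1 in 20 sets. Levels that stood apart were JUN in wild-type replicate 5 (1469, the other wild-type libraries at 589.6 to 749.8), JUNB in R749H replicate 3 (335.8, the others at 135.9 to 168.0), ATF3 in wild-type replicate 1 (303.6, the others at 146.1 to 167.4) and IER3 in wild-type replicate 1 (716.1, the others at 345.3 to 430.5). Shares of 3′ ends that stood apart were those of FOS at +799 in wild-type replicate 4 (11.1%, 1 of 9 reads, and 0% in the others) and at +805 to +808 in wild-type replicate 5 (50% of 2 reads), JUN at +682 to +697 in wild-type replicate 4 (29.0%, the others at 20.4% to 22.3%), JUNB at +494 to +498 in R749H replicate 1 (91.0%, the others at 98.6% to 100%), JUND at +672 to +689 in wild-type replicate 1 (99.0%, the others at 99.6% to 99.7%) and IER3 at +725 to +740 in R749H replicate 1 (98.7%, the others at 99.5% to 99.6%). The cause of these deviations was not tested.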

How the results depend on the processing

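FOSL1, JUNB and EGR1 were called higher in all 16 alternatives and FOS in the 12 in which it passed the filter. None of the 8 genes changed the sign of its expression change in any alternative, ATF3 was called in 13 of 16, JUN in 2 and JUND in 1. The number of the 8 genes called higher ranged from 3 to 6 when each library was left out, with 3 of 7 without R749H replicate 4 (FOS was then not tested and ATF3 did not pass, adjusted p = 0.0811 with limma). On the authors' scaling, 7 of the other immediate early genes were called in place of 12. Genes called for 3′ end position numbered 4, and 3 to 7 when each library was left out. With the replicate block (replicates 1 to 4) there were 0, against 3 for the same libraries without it (chosen after seeing the data, and the same fit as without wild-type replicate 5). For expression the block gave 2093 calls against 2214, and JUN passed with it (adjusted p = 0.0158) and without it on those libraries (adjusted p = 0.0396). Same-numbered libraries did not deviate together (r of -0.08 to 0.02), which does not show whether they were handled together. The sign turned for TIMP1 (-0.0092 with edgeR, -0.31 on the authors' scaling, and -0.15 to 0.13 when each library was left out), ELAVL1 (-0.17 on the authors' scaling), ATF4 (-0.23 to 0.016 when each library was left out) and, with no call under any setting, for the log2 odds of ATF3 (-0.29 with the block, -0.29 on those libraries without it, and -0.32 to 0.97 when each library was left out) and of EGR1 (-0.43 to 0.21 when each was left out). Assignment to the nearest stop codon was not run, because each position already carried 1 gene. Depth limits FOS (92 reads), EGR1 (304) and FOSL2 (336) most.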
